A study of Homo sapiens with 16 samples.

Results

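Cytoplasmic ribosomes are built from ribosomal RNA and a set of ribosomal proteins that assemble in nearly equal numbers, so the genes of the small subunit (named RPS) and the large subunit (named RPL) are usually described as one coordinated group. Their mRNAs are among the most abundant of a growing cell, and most begin with a C followed by a run of pyrimidines, the 5′ terminal oligopyrimidine (TOP) motif, through which their translation is controlled when growth signals change. Estrogen is a growth signal for many breast and endometrial cells. The genes were taken from the count tables by symbol: every row named RPL or RPS with a number and at most a closing A, L or X, and RPLP0, RPLP1, RPLP2 and RPSA. This gave 81 of 26364 genes: 43 of the large subunit, 31 of the small subunit, the 3 stalk proteins RPLP0, RPLP1 and RPLP2, and 4 paralogs with their own names, RPL3L, RPL10L, RPL39L and RPS27L.

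The values came from bulk poly(A) RNA-seq of 2 human cancer cell lines, Ishikawa (endometrial adenocarcinoma) and T-47D (ductal carcinoma of the breast). Both were kept in hormone-deprived medium (RPMI without phenol red, with charcoal-stripped serum) for some days and then given 10 nM 17β-estradiol (E2) for 0, 2, 4 or 8 h, the 0 h cells receiving vehicle. There were 2 replicates for each of the 4 time points in each line, 16 libraries in all. The labels number the replicates and do not say whether they are separate cultures, so p-values measure the spread between these libraries, which may be technical.

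Library totals ran from 41177912 to 58918642 counts for Ishikawa cells and from 41223813 to 64148903 in T-47D cells. GREB1 and PGR, 2 well-known estrogen-induced genes, rose at 8 h in Ishikawa cells (log2 fold changes 1.65 and 3.75) and in T-47D cells (2.15 and 1.09). The summed level of 5 epithelial markers was 2606 to 2949 CPM (counts scaled to library size) in Ishikawa libraries and 9717 to 12677 in T-47D libraries, and 3 leukocyte markers together stayed at or under 0.372 CPM in every library. The Ishikawa libraries of 4 h and 8 h did not group by time: over all tested genes the 2 libraries of 4 h differed by a root mean square of 0.391 on the log2 CPM scale, while replicate 2 of 4 h and replicate 1 of 8 h differed by 0.329. In that line only 1 gene was higher and 1 lower at 8 h than at 4 h, so values at these 2 times are given with that limit. In T-47D cells the 2 libraries of 4 h differed by 0.297 and those of 8 h by 0.332. Pairs across these times differed by 0.33 to 0.345, so the 8 h pair was hardly closer than they were. The labels were kept as given.

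The start sites show the motif that most of these mRNAs share. RefSeq start sites were at hand for 64 of the 81 genes, and in 46 of them (71.9%) the mRNA began with a C followed by at least 4 pyrimidines, against 5.14% of the 27305 genes in the same table and 8.11% of 74 genes for mitochondrial ribosomal proteins. The windows below hold 15 bases before the start and 15 from it, 5′ to 3′ on the gene's strand, in GRCh38.p14 from RefSeq. Capitals mark the unbroken pyrimidine run of the mRNA from its first base, where that base is C. The first 6 are genes that rose or fell in the comparisons that follow and carry the motif, and the last 2, RPS26 (which rose) and the paralog RPS27L, lack it at the listed start.
RPLP0, chr12:120201097-120201126, minus strand: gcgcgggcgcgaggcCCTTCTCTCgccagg
RPSA, chr3:39406705-39406734, plus strand: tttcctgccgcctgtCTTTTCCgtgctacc
RPS14, chr5:150449725-150449754, minus strand: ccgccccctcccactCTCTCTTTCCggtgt
RPL29, chr3:51995881-51995910, minus strand: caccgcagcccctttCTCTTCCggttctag
RPLP1, chr15:69452803-69452832, plus strand: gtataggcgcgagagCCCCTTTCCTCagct
RPL13A, chr19:49487593-49487622, plus strand: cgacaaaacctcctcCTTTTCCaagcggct
RPS26, chr12:56041903-56041932, plus strand: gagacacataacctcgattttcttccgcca
RPS27L, chr15:63157463-63157492, minus strand: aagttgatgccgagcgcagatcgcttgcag

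The motif search spelled out CNNNN with each N a C or a T, on the mRNA strand, at each listed start of a gene. Moving the start by up to 5 bases either way raised the share to 82.8% of these genes and 25.2% of all genes, so the listed base decides part of the count. The windows were picked to show the motif, and the counts over all tested genes are given with the 8 h results.

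Together the 81 genes took a larger share of the counts in Ishikawa cells than in T-47D cells, and within a line the share moved little with E2. In Ishikawa cells the 2 libraries held 6.34% and 6.38% of their counts on these genes before E2, 6.18% and 6.19% after 2 h, 6.52% and 6.35% after 4 h, then 5.91% and 6.35% after 8 h. The T-47D libraries had 3.75% and 3.65% before E2, 3.69% and 3.64% after 2 h, 3.64% and 3.63% after 4 h, then 3.95% and 3.87% after 8 h. Both T-47D libraries of 8 h lay above the other 6 of that line. In Ishikawa cells the pair of 8 h libraries was farther apart than the means of any 2 time points, at 6.13% ± 0.310 (SD, n = 2) for 8 h and 6.43% ± 0.124 for 4 h. For T-47D the means were 3.70% ± 0.0722 (0 h), 3.66% ± 0.0399 (2 h), 3.64% ± 0.0124 (4 h) and 3.91% ± 0.0613 at 8 h. These shares were not tested.

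**Figure D1:**
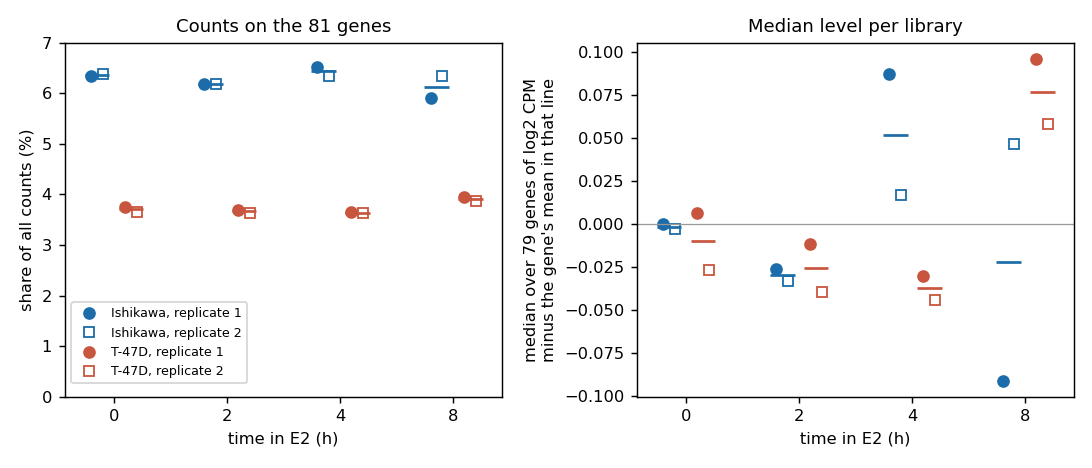
The left panel plots the percentage of all counts that fall on the 81 genes and the right panel the median over 79 genes of log2 CPM minus the gene's mean in that line, by hours in E2; each marker is 1 library, filled for replicate 1 and open for replicate 2, and each bar is the mean of 2 libraries. The 8 h libraries of T-47D cells sit at 0.096 and 0.058 in the right panel, above all others of that line, while those of Ishikawa cells sit at -0.091 and 0.047.

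The genes moved as a block between libraries, including between replicates. In each line 2 genes had too few counts to be tested (RPL21 in both, RPL10L in Ishikawa cells, RPL3L in T-47D cells), which left 79 per line. In the 8 h pair of Ishikawa cells replicate 2 was higher for 76 of 79 genes, by a median of 0.144 on the log2 scale, while 50.5% of all tested genes were higher in replicate 1. In the 4 h pair of that line replicate 1 was higher for 67 genes, with a median difference of 0.068. The 0 h and 2 h pairs were nearly level, at medians of -0.006 and 0.011 for replicate 1 minus replicate 2. In T-47D cells replicate 1 was the higher at every time, for 69 genes at 0 h, 60 at 2 h, 61 at 4 h and 62 at 8 h, by medians of 0.037, 0.027, 0.020 and 0.031. Mitochondrial ribosomal proteins also differed in the Ishikawa 8 h pair, by a median of -0.078. The genes thus did not vary independently of each other between libraries.

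**Figure D2:**
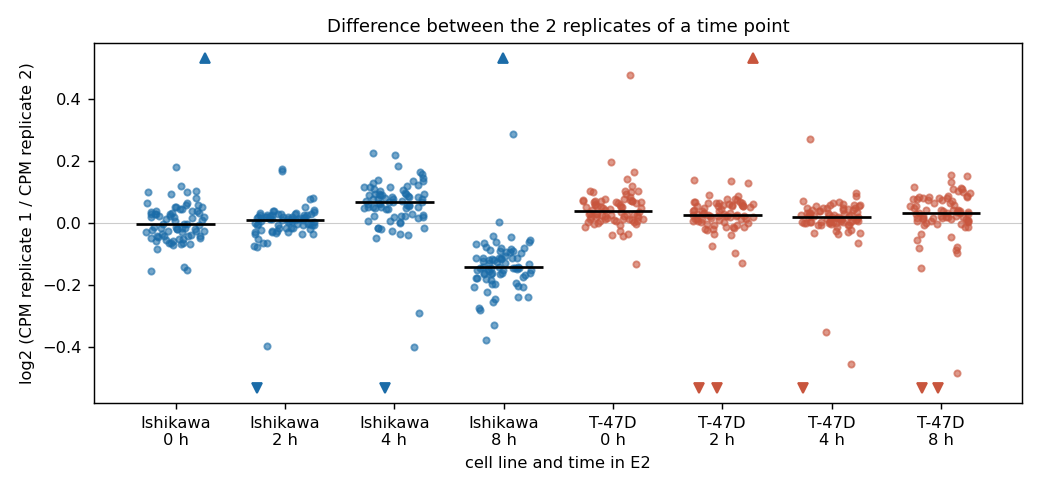
Log2 ratio of CPM in replicate 1 to replicate 2 for each tested gene (RPL10L and RPL3L left out for their few counts), for the 4 time points of each line; points are genes, bars are medians, and triangles at the edges are genes beyond 0.5. The Ishikawa pair of 8 h lies almost wholly below 0, with a median of -0.144, and the 4 T-47D pairs lie slightly above it.

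In Ishikawa cells, almost no ribosomal protein gene passed the test of E2 against 0 h. The 79 genes were tested with edgeR's quasi-likelihood test, with p-values adjusted by Benjamini-Hochberg over all 15787 genes and called under 0.05. At 2 h none rose or fell, where 2.61% of all genes rose and 1.74% fell. None had an unadjusted p under 0.05 there, which 2619 of all 15787 genes reached. None passed at 4 h either (7.66% of all genes rose, 6.60% fell). Of the 79, 4 had an unadjusted p under 0.05 at 4 h, beside 4619 of all 15787 genes. DESeq2 called 0 at both times. The median log2 fold change was -0.03 at 2 h, 0.05 at 4 h with 70 of 79 genes above 0, and -0.02 at 8 h with 54 below 0, beside medians of -0.002, 0.005 and -0.009 over all tested genes. The -0.03 of 2 h was larger in size than the medians between replicates at 0 h (-0.006) and 2 h (0.011). It was smaller in size than those at 4 h (0.068) and 8 h (-0.144). With any 1 library left out it stayed between -0.035 and -0.020. The 0.05 of 4 h was smaller than the 0.068 between its own replicates, and it was 0.013 without replicate 1 of 4 h and 0.090 without replicate 2. Genes whose 2 replicates both lay below both 0 h libraries numbered 34 of 79 at 2 h (43.0%, against 24.0% of all genes), with 4 that both lay above (5.06%, against 25.4%). At 4 h 34 of 79 lay above (43.0%, against 28% of all genes).

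One gene fell in Ishikawa cells at 8 h, against 10.1% of all tested genes that fell and 12% that rose. This was RPL13A, a large-subunit protein that is also known as part of a complex repressing translation of inflammatory mRNAs. It is annotated on hg19 (GRCh37) at chr19:49990767-49996314. RPL13A was at 207 and 217 CPM before E2, 195 and 201 after 2 h, 204 and 206 after 4 h, then 180.4 and 195 after 8 h. Both 8 h libraries lay below both 0 h libraries, and replicate 2 of 8 h lay level with replicate 1 of 2 h. The log2 fold change at 8 h was -0.18 ± 0.06 (SE, edgeR adjusted p = 0.0372). Without replicate 1 of 8 h it was -0.12 (adjusted p = 0.295), without replicate 2 of 0 h -0.14 (adjusted p = 0.187), and it also missed the threshold without either 2 h library (0.0847 and 0.0836).

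The median at 8 h in this line was set by single libraries. It was 0.05 without replicate 1 of 8 h and -0.09 without replicate 2 of 8 h, and in the latter case 4 genes fell. None of the 79 differed between 8 h and 4 h, where 1 of 15787 genes was higher and 1 lower (0.00633% each way), and the median difference was -0.07.

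In T-47D cells, few ribosomal protein genes changed at 2 h and 4 h, and more were higher at 8 h. At 2 h 1 of 79 fell and none rose, while 4.40% of 15594 tested genes fell and 4.90% rose. At 4 h 3 fell and none rose, against 10.4% and 11.1% of all genes. At 2 h both replicates lay above both 0 h libraries for 5 of 79 genes (6.33%, against 25.3% of all genes) and below them for 27 (34.2%, against 27.5%). At 4 h this held for 5 genes above (6.33%, against 29.2%) and 35 below (44.3%, against 30.5%). At 8 h 30 of 79 rose (38.0%, against 15.4% of all genes) and none fell (14.3% of all genes fell). For 41 of the 79 the unadjusted p was under 0.05, as it was for 6107 of all 15594 tested genes. The median log2 fold change went from -0.02 after 2 h and -0.03 after 4 h to 0.08 after 8 h, the last a rise of 5.66%, beside medians of -0.009, -0.005 and 0.003 over all tested genes. The sign of the first 2 rested on replicate 1 of 0 h, without which they were 0.0087 and 0.00067. At 8 h 71 of the 79 were above 0, and in 54 both replicates exceeded both 0 h libraries (68.4%, against 30.3% of all genes), while in 2 both lay below (29.8% of all genes).

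**Figure D3:**
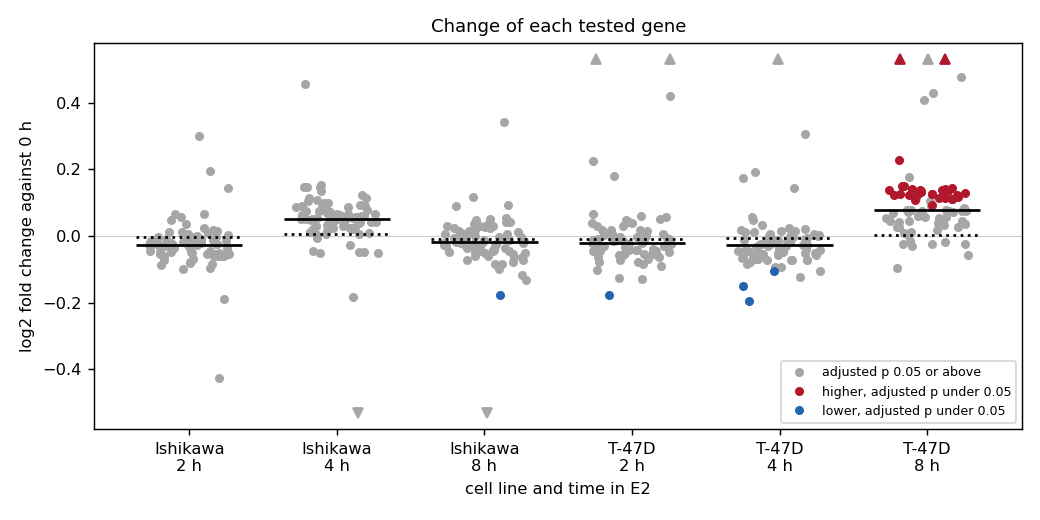
Log2 fold change against 0 h of each tested gene at 2, 4 and 8 h in each line; red and blue points are genes higher and lower at an adjusted p under 0.05, solid bars are the medians of these genes, dotted bars the medians of all tested genes, and triangles are genes beyond 0.5. The 30 red symbols, points and triangles together, all belong to T-47D cells at 8 h, where the median is 0.08.

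The rise at 8 h was larger than the median difference between T-47D replicates, and the number of genes called rested on single libraries. The median change of 0.08 exceeded the median replicate difference of every T-47D pair, the largest of which was 0.037 at 0 h. It was smaller in size than the median of -0.144 for replicate 1 minus replicate 2 at 8 h in Ishikawa cells. Against 4 h instead of 0 h, a comparison added after the data were seen, 78 of 79 genes were higher at 8 h, with a median of 0.11, and 17 passed the test (2.09% of all genes were higher and 1.33% lower). That number was 0 without replicate 2 of 4 h, 3 without replicate 1 of 8 h, 4 without replicate 1 of 4 h and 8 without either 2 h library. The number that rose against 0 h was 4 without replicate 2 of 0 h, 13 without replicate 1 of 8 h, and 24 to 29 without any other library. Fitted on the 0 h and 8 h libraries alone it was 9, and at an adjusted p of 0.01 it was 6. Library totals and the share of counts on histone genes, RMRP and RPPH1 also differed between the times. These genes were listed by symbol because many of their RNAs lack poly(A) tails. The 8 h libraries held 50180199 and 50472464 counts against 44488088 and 41223813 at 0 h, and those of 4 h held 64148903 and 51653748. The histone genes, RMRP and RPPH1 took 0.0625% and 0.0652% of counts before E2, 0.0585% and 0.0599% after 4 h, and 0.0569% and 0.0589% after 8 h. The 5 epithelial markers summed to 10114 and 9717 CPM before E2, 12202 and 12263 after 4 h, and 12627 and 12271 after 8 h. The 4 fibroblast markers summed to 91.5 and 99.4 CPM before E2, 82.8 and 89.2 after 4 h, and 81.3 and 75.5 after 8 h. At 8 h 3 epithelial markers rose and 1 fell, and all 3 fibroblast markers with enough counts to test fell. The part of library totals, of the share on histone genes, RMRP and RPPH1, and of the marker differences in the result was not tested.

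Of the stalk, the projection of the large subunit that recruits elongation factors, RPLP0 rose at 8 h in T-47D cells and the other two members did not pass the test. RPLP0, its base and the most highly counted of the 81 genes (GRCh37 chr12:120634502-120639038), was at 1909 and 1850.0 CPM before E2, 1902 and 1832 after 2 h, 1887 and 1853 after 4 h, then 2109 and 1994 after 8 h. Both 8 h libraries stood above all others, and the log2 fold change was 0.13 ± 0.03 (edgeR adjusted p = 0.00735). Without replicate 2 of 0 h its adjusted p was 0.0543, and without replicate 1 of 8 h it was 0.0824. RPLP1 (GRCh37 chr15:69745153-69748544), one of the acidic proteins that bind RPLP0, went the other way, at 649.8 and 647 CPM before E2, 619 and 603 after 2 h, 591 and 576.5 after 4 h, then 637 and 575 after 8 h. All 6 treated libraries were below both untreated ones, and the change was -0.15 ± 0.04 at 4 h (adjusted p = 0.0174) and -0.10 ± 0.04 at 8 h (adjusted p = 0.101). The 4 h value missed the threshold without any one of the 0 h or 4 h libraries (0.0599 to 0.136), and the 8 h value passed without replicate 1 of 8 h (0.00294). RPLP2, its partner, had a log2 fold change of -0.03 ± 0.05 at 8 h. In Ishikawa cells at 8 h the 3 values were -0.01, -0.04 and -0.06, none past the test.

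In the small subunit 14 of 31 genes rose at 8 h in T-47D cells (45.2%, against 15.4% of all tested genes). The median over the subunit was 0.11, beside 0.003 over all tested genes. RPS26 (GRCh37 chr12:56435135-56438481), which lies at the mRNA exit channel and is mutated in Diamond-Blackfan anemia, was at 175 and 169 CPM before E2, 161 and 172 after 2 h, 176 and 165 after 4 h, then 207 and 195 after 8 h. Its 8 h libraries did not overlap with any other, and the change of 0.23 ± 0.05 (edgeR adjusted p = 0.0020) passed in each of the fits that left out 1 library. RPSA, the laminin receptor and a protein of the mature 40S subunit (GRCh37 chr3:39448207-39467746), was at 681 and 652 CPM before E2, 678 and 648 after 2 h, 667 and 659 after 4 h, then 754 and 721 after 8 h. RPSA at 8 h was likewise above every other library, with a change of 0.15 ± 0.04 (adjusted p = 0.00732). Without replicate 2 of 0 h its adjusted p was 0.0716, and without replicate 1 of 8 h it was 0.0538. RPS14, whose loss of a copy is known from a myelodysplastic syndrome, was at 740.3 and 705 CPM before E2 and 795 and 791 after 8 h (0.13 ± 0.04, adjusted p = 0.0239), and it missed the threshold without replicate 2 of 0 h (0.159) or replicate 1 of 8 h (0.0665).

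Other small-subunit genes moved less or could not be judged. RPS6, the S6 kinase substrate used as a readout of mTOR signalling at the protein level, was at 682 and 672 CPM before E2 and 720.5 and 709.9 after 8 h in T-47D cells. Its 8 h libraries were above both 0 h libraries, but the change of 0.08 ± 0.03 missed the threshold (adjusted p = 0.0948). RPS19, the gene most often mutated in Diamond-Blackfan anemia, was at 0.04 ± 0.04, RPS4X, which has a Y-linked counterpart, at 0.07 ± 0.04, and RPS27 at -0.02 ± 0.04. RPS27A, made as a fusion with ubiquitin, was at 0.06 ± 0.05.

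RPS20, a small-subunit head protein, was at 626 and 609 CPM before E2, 589.8 and 584 after 2 h, 575 and 573 after 4 h, then 611 and 598 after 8 h in T-47D cells. The 4 h libraries were the lowest of the line, and the log2 fold change there was -0.10 ± 0.03 (edgeR adjusted p = 0.0395). It missed the threshold without any one of the 0 h, 2 h or 4 h libraries (0.065 to 0.245). At 8 h the change was -0.03 ± 0.03.

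RPS18, a small-subunit head protein, had libraries far from their replicate. RPS18 (GRCh37 chr6:33239852-33244288) ran from 1957 to 18601 counts between the 2 T-47D libraries of 8 h and from 1884 to 9012 between those of Ishikawa cells. Its replicates differed by more than 0.5 on the log2 scale in 7 of the 8 pairs, and no change was called. How reads of copies of this gene were assigned is not given in the sources used here.

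In the large subunit 15 of 42 tested genes rose at 8 h in T-47D cells (35.7%, against 15.4% of all tested genes). The median over the subunit was 0.08, beside 0.003 over all tested genes. RPL8, near the peptidyl transferase centre, was at 1150.0 and 1093.5 CPM before E2, 1087 and 1098 after 2 h, 1106 and 1081 after 4 h, then 1254 and 1238 after 8 h. Its 8 h libraries were above all others, and the change of 0.15 ± 0.03 (edgeR adjusted p = 0.00193) passed in every fit that left out 1 library. RPL17 also passed, at 0.56 ± 0.20 (adjusted p = 0.0445), on 96 to 196 counts a library, and lost the call in DESeq2 (0.073), with the replicate block (0.0607) and without any one of the 0 h or 8 h libraries.

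RPL5, RPL11, RPL23 and RPL26 are known to act outside the ribosome on MDM2 and p53. RPL5 was at 459 and 435 CPM before E2 and 483 and 481 after 8 h in T-47D cells, with no overlap (0.11 ± 0.04, edgeR adjusted p = 0.0421), a call lost in 7 of the 8 fits without 1 library. RPL23 was at 573 and 563 CPM before E2 and 612 and 612 after 8 h (0.11 ± 0.03, adjusted p = 0.0248). RPL11, which joins the ribosome with RPL5, was at 392 and 403 CPM before E2 and 399 and 398 after 8 h, where the groups overlapped (0.01 ± 0.04). RPL26 was at 0.02 ± 0.04.

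RPL29, a large-subunit protein also described at the cell surface, was the gene that fell at both early times in T-47D cells. RPL29 was at 410.3 and 383 CPM before E2, 349.8 and 352 after 2 h, 349.5 and 343 after 4 h, then 394 and 368 after 8 h. The 4 libraries of 2 h and 4 h lay below all others, and those of 8 h overlapped with 0 h. The log2 fold change came to -0.18 ± 0.04 at 2 h (edgeR adjusted p = 0.0138), -0.19 ± 0.04 at 4 h (0.00365) and -0.06 ± 0.04 at 8 h (0.371). Without replicate 1 of 0 h the 2 h value was -0.11 (0.191) and the 4 h value -0.13 (0.0691). Without either 2 h library the 2 h call was lost too (0.163 and 0.126). Other large-subunit genes were near level at 8 h: RPL3 at 0.06, RPL10 at 0.01, RPL22 at 0.06 and RPL13A at -0.02, none past the test.

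**Figure D4:**
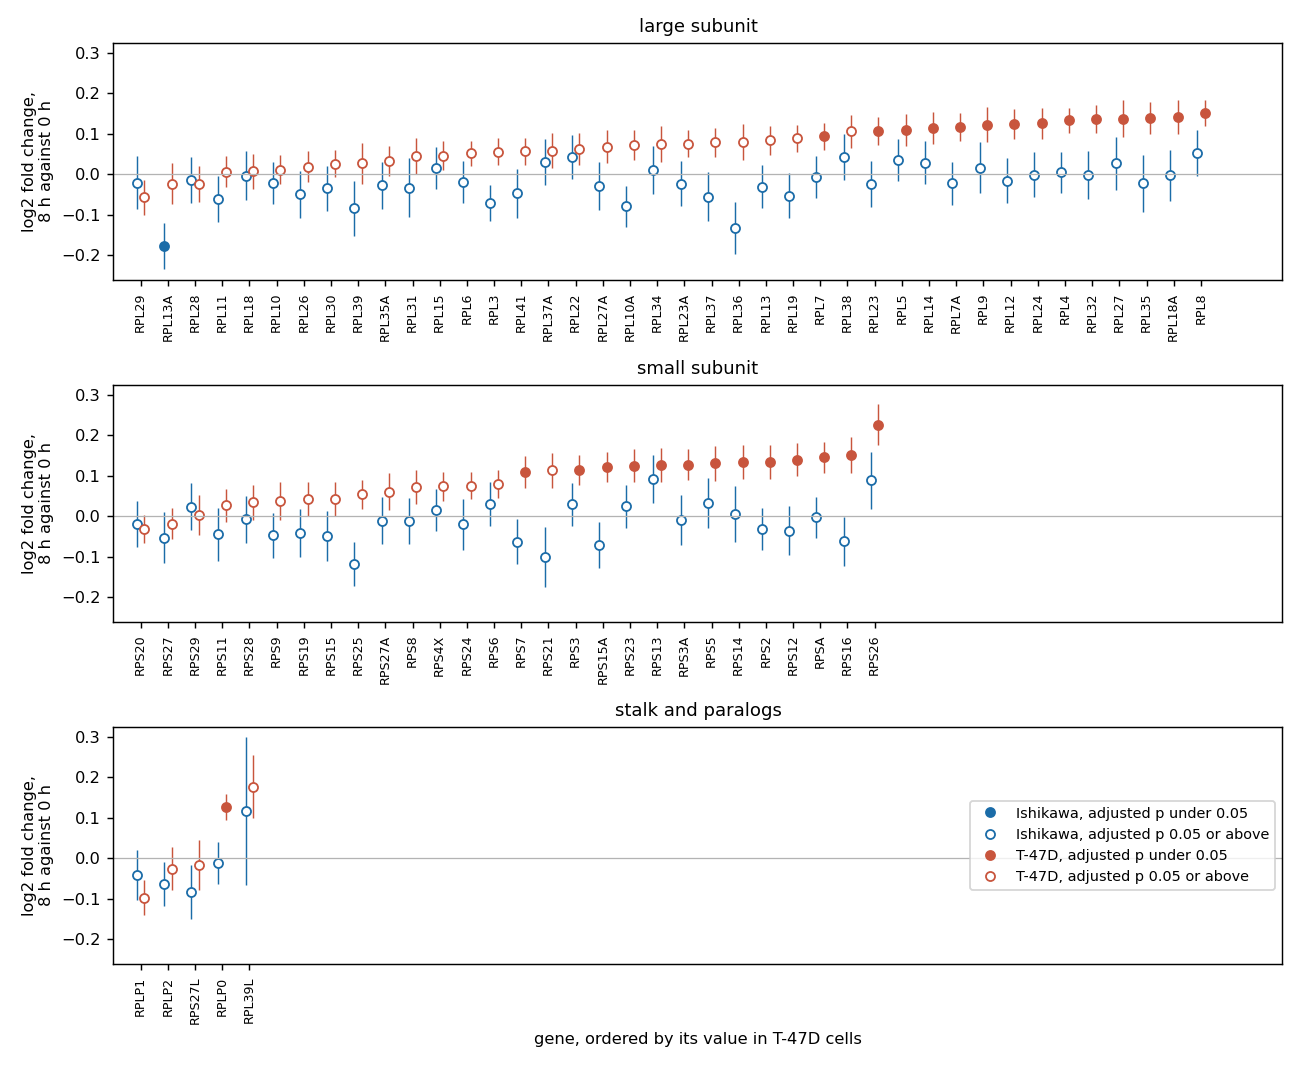
Log2 fold change at 8 h against 0 h, with its SE, for each gene in Ishikawa and T-47D cells, grouped as large subunit, small subunit and stalk with paralogs; filled symbols have an adjusted p under 0.05. Some genes with few counts or wide replicates, RPS10, RPS18, RPL17, RPL36A and RPL10L among them, are left out; RPLP0 (0.13) and RPLP1 (-0.10) lie on opposite sides of 0 in T-47D cells.

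Whether E2 acted differently in the 2 lines was tested by the interaction of line and time over 16 libraries. For none of 80 genes did the change from 0 h differ at 2, 4 or 8 h at an adjusted p under 0.05 in edgeR, where 1.40%, 3.21% and 5.32% of 17090 genes differed towards T-47D cells and 1.28%, 2.83% and 4.70% towards Ishikawa cells. An unadjusted p under 0.05 was reached by 2, 5 and 15 of the 80 genes, beside 1776, 3025 and 3845 of all 17090. DESeq2 called 0, 1 and 0 of the ribosomal protein genes. At 8 h 74 of 80 genes had the more positive change in T-47D cells, with a median difference of 0.10 on the log2 scale, less than the 0.144 between the Ishikawa replicates of that time. The lowest adjusted p-values there, picked after the values were seen, were those of RPS15A (0.19 ± 0.07, 0.089) and RPS16 (0.21 ± 0.08, 0.091). The rise at 8 h is thus not shown to be particular to T-47D cells.

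Without E2, most ribosomal protein genes were at a lower level in T-47D than in Ishikawa cells. At 0 h 70 of 80 genes were lower in T-47D cells (87.5%, against 42.4% of all genes) and 4 higher (39.5% of all genes), with a median log2 difference of -0.78, beside -0.05 over all genes. The small subunit differed more than the large one, with medians of -0.98 (29 of 31 lower) and -0.72 (36 of 42 lower), and the 3 stalk genes had a median of -1.06. The line, its culture and its handling cannot be told apart here, and in bulk samples neither can fewer expressing cells and less RNA per cell. In the same libraries the share of counts on these genes was 6.34% and 6.38% against 3.75% and 3.65%.

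The widest differences among genes with many counts were in RPS2, RPS16 and RPL27A. RPS2, at the entry of the mRNA channel, was at 2689 and 2658 CPM in Ishikawa cells against 858 and 857 in T-47D cells (-1.57 ± 0.05, edgeR adjusted p = 1.12e-16). RPS16 was at 731 and 744 against 245 and 232 CPM (-1.56 ± 0.06). RPL27A was at 784 and 820.3 against 257 and 264 CPM (-1.56 ± 0.05). The groups were far apart in all 3.

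Some genes were nearly level between the lines. RPL23 differed by -0.17 ± 0.05 and RPS27 by -0.13 ± 0.05 (adjusted p = 0.0359). RPL35A was at 699 and 668 CPM in Ishikawa cells against 737 and 705 in T-47D cells (0.14 ± 0.05, adjusted p = 0.0121), and RPL13 at 969.7 and 989.9 against 1036 and 978 (0.11 ± 0.05, adjusted p = 0.0442). Both were called higher in T-47D cells. The libraries of the lines did not overlap for RPL35A and did for RPL13. These CPM were scaled within each line, while the tests used 1 scaling over 16 libraries.

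The paralogs differed among themselves in which line had the higher level. RPL39L, a copy of RPL39 best known from male germ cells and some tumours, was at 3.21 and 3.54 CPM in Ishikawa cells against 20.7 and 21.1 in T-47D cells, a difference of 2.70 ± 0.12 (edgeR adjusted p = 2.45e-14). Per coding length it reached 0.894% to 1.34% of RPL39 in Ishikawa libraries and 10.5% to 13.4% in T-47D libraries. RPS27L, a p53 target that resembles RPS27, stood at 7.92% to 9.37% of it in Ishikawa libraries and 6.46% to 7.34% in T-47D libraries, and its own difference was -0.49 ± 0.06.

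RPL10L, a retrogene of RPL10 used in spermatogenesis, had 0 counts in all 8 Ishikawa libraries and 3 to 19 in T-47D libraries. With a floor of 3 counts per library it was at least 3.26-fold higher in T-47D cells at 0 h, where it had 8 and 10 counts. With so few counts this bound depends on the floor chosen. RPL3L, the muscle form of RPL3, had 17 to 30 counts in Ishikawa libraries and 0 to 4 in T-47D libraries, at most 0.0283% of RPL3 per coding length. None of the 4 passed a test of E2 in either line where it was tested. RPL39L in T-47D cells had a log2 fold change of 0.18 ± 0.08 at 8 h (adjusted p = 0.101).

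**Figure D5:**
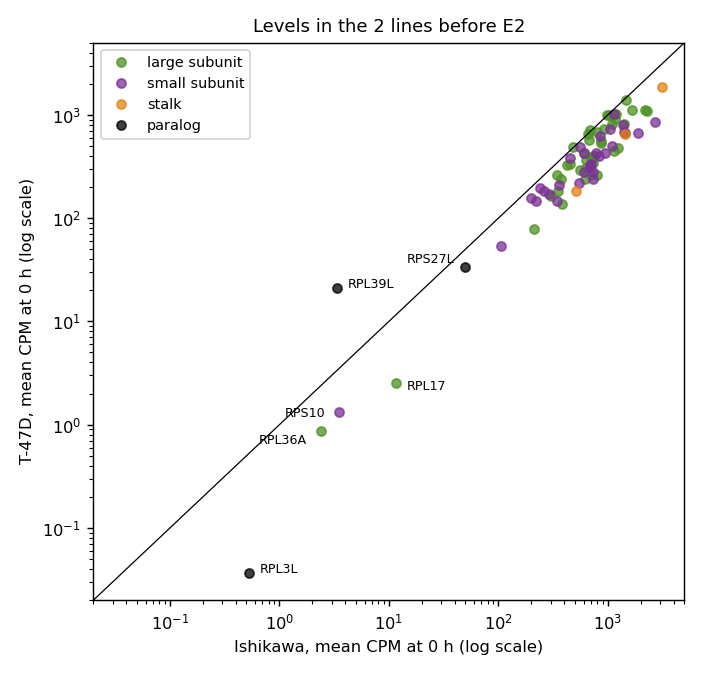
Mean CPM of each gene at 0 h in Ishikawa cells (horizontal) and T-47D cells (vertical), both on log axes, with the line of equal levels; RPL10L and RPL21, at 0 in a line, are not drawn. Most points lie below the line, and RPL39L lies above it.

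Several chaperones and assembly factors of ribosomal proteins rose at 8 h in both lines, where the medians of the ribosomal proteins were -0.02 and 0.08. Of 14 genes for chaperones, importers and assembly factors of ribosomal proteins, 8 rose and 1 fell at 8 h in Ishikawa cells, while 10 rose and 1 fell in T-47D cells, with medians of 0.18 and 0.31. Of all tested genes 12% rose and 10.1% fell at 8 h in Ishikawa cells, and 15.4% and 14.3% did so in T-47D cells. PNO1, needed to mature the small subunit, rose by 0.44 ± 0.07 and 0.55 ± 0.08, and the 1 that fell in both lines was GLTSCR2 (-0.17 ± 0.05 and -0.27 ± 0.05), which binds RPL11 and RPL5 in their assembly. Of 10 host transcripts of small nucleolar RNAs, several with a TOP motif, 2 rose in Ishikawa cells against 7 in T-47D cells at 8 h. SNHG15 rose by 0.42 ± 0.08 and 1.37 ± 0.09, while GAS5 was at -0.09 and 0.14, neither past the test.

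Translation factors, many of them also encoded by TOP mRNAs, were closer to the ribosomal proteins. Of 27 tested, 1 rose at 8 h in Ishikawa cells (median 0.01), and 11 rose and 1 fell in T-47D cells (median 0.09). EIF3B rose by 0.45 ± 0.04 in T-47D cells, EIF4B fell by 0.18, and the elongation factors EEF1A1 and EEF2 were at -0.02 and -0.04. Mitochondrial ribosomal proteins rose at 8 h in 10 of 78 cases (Ishikawa) and in 21 of 79 (T-47D) and fell in none, with medians of 0.06 and 0.08. The Ishikawa count is close to the 12% of all genes that rose there, and 15.4% of all genes rose in T-47D cells. Of 7 ribosomal proteins or paralogs with other names, none rose in Ishikawa cells and 3 did in T-47D cells, among them RPL22L1 (0.56 ± 0.08). MYC, a known activator of ribosome synthesis genes, rose by 0.46 ± 0.06 and 2.70 ± 0.11.

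The genes that rose at 8 h in T-47D cells had the TOP motif in some cases and lacked it in others. The motif was at a listed start in 45 tested genes, of which 14 rose. Of those without it 7 of 18 rose, and of those with no start at hand 9 of 16. Of all tested genes 15.4% rose. The number of ribosomal protein genes called rested on single libraries, so this split does too. These shares were not tested.

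A few rows held almost no counts for genes of this kind. RPL21 had 0 to 2 counts in every library, RPS10 had 161 to 230 for Ishikawa cells and 51 to 115 in T-47D cells, RPL36A 80 to 163 and 30 to 84, and RPL17 466 to 656 and 96 to 196. How overlapping and near-identical genes were counted is not given in the sources used here, so the levels of these rows are uncertain. The rows for the readthrough transcripts RPS10-NUDT3, RPL36A-HNRNPH2 and RPL17-C18orf32 were at 0 in all 16 libraries.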

How the data were processed

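Per the labels and the study's methods, poly(A) RNA was made into directional libraries, and the submitters' processing notes name HISAT2, SAMtools, featureCounts, DESeq2 and the build hg19. Versions and the settings for strand, read pairs and multiply mapped reads are not given in the sources used here. The deposited values are raw counts per gene from the authors, 1 table per line. Among counts of 1 to 10, 71.2% to 74.6% were even.

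Genes were tested in edgeR 4.0.16 (quasi-likelihood, TMM scaling, filterByExpr) in R 4.3.3, with time as a factor per line, and in 1 fit of 16 libraries for differences between lines. Adjusted p-values are Benjamini-Hochberg over all tested genes, with a threshold of 0.05. Values after ± are SE of a log2 fold change unless SD is stated. CPM are per library total scaled by TMM within a line, with a prior count of 2 on the log2 scale. The fits were tested on simulated data. The biological coefficient of variation came to 6.45% (Ishikawa) and 5.02% (T-47D).

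The members and lists were chosen with earlier results of these data known. Named genes were, per comparison, up to 4 higher and 4 lower members of the largest log2 change past the test (mean count 50 or more), and a list fixed by role. Alternatives were DESeq2 1.42.0, RLE scaling, TMM without the members, other filters and thresholds, a transcript length offset, counts divided by 2, a replicate block, only the time points compared, 4 h and 8 h as 1 group, and each library left out. Start sites came from RefSeq (GRCh38.p14) and gene positions from GENCODE on GRCh37. Over all tested genes, same-numbered replicates did not deviate together (r from -0.115 to 0.0595). For most of the ribosomal protein genes, however, replicate 1 was the higher at every time in T-47D cells. One gene of the rule is counted in the totals and not reported here by name.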

Additional observations from a re-analysis of the deposited data

How the results depend on the processing

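At 8 h in T-47D cells DESeq2 called 30 genes, RLE scaling 29, and the replicate block 31. The labels do not say whether the replicate numbers pair the samples. The block turned RPS18 at 8 h in T-47D cells to -0.12. With an adjusted p under 0.01 the counts were 0 (Ishikawa 8 h), 0 (T-47D 2 h), 1 (T-47D 4 h) and 6 (T-47D 8 h), and under 0.1 they were 1 (Ishikawa 4 h), 2 (T-47D 2 h) and 3 (line difference 8 h). With no filter they were 1, 1 and 2 in Ishikawa cells at 2, 4 and 8 h, 3 (2 higher, 1 lower) and 5 in T-47D cells at 2 and 4 h, and 2, 4 and 2 for the line difference. With only the time points compared they were 1 (Ishikawa 4 h), 2 (T-47D 2 h) and 9 (T-47D 8 h). With 4 h and 8 h as 1 group they were 0 in Ishikawa cells at 8 h and 0 and 0 in T-47D cells at 4 h and 8 h. The length offset gave 1 higher gene in Ishikawa cells at 8 h, and DESeq2 1 gene for the line difference at 4 h. As shares of TMM-scaled totals, Ishikawa cells had 6.27% at 0 h and 6.15% at 2 h. The cause of these moves was not tested.

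Leaving out 1 library gave 0 to 2 called genes in Ishikawa cells at 4 h and 0 to 4 at 8 h, and in T-47D cells 0 to 2 at 2 h, 0 to 4 at 4 h, 4 to 29 at 8 h and 0 to 25 for 8 h against 4 h. Without replicate 1 of 2 h the 1 gene called at 2 h in T-47D cells was higher. In Ishikawa cells medians ran from -0.035 to -0.020 (2 h), 0.013 to 0.090 (4 h) and -0.094 to 0.053 (8 h). In T-47D cells they ran from -0.031 to 0.0087 (2 h), -0.044 to 0.00067 (4 h) and 0.067 to 0.11 (8 h). Uncalled genes of T-47D cells at 8 h changed sign, with ranges of -0.092 to 0.048 for RPLP2, -0.0057 to 0.029 for RPL11, -0.036 to 0.00049 for RPL13A, -0.059 to 0.031 for RPS27, -0.0071 to 0.10 for RPS19, -0.019 to 0.052 for RPL10, -0.057 to 0.033 for RPS27L and -1.90 to 1.33 for RPS18. With 2 libraries a group, changes under about the replicate spread cannot be resolved.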
